A study of Mus musculus with 12 samples.

Results

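Antigen presentation and lymphocyte markers in mouse liver were followed with 9 genes, Cd74, H2-Aa, H2-Ab1, H2-Eb1, Cd79b, Ms4a1, Cd3e, Cd8a and Ccl5. Every probe whose accession maps to one of these symbols was taken, which gave 11 of the 39429 probes of the array (2 each for H2-Ab1 and Cd8a). Liver RNA of 12 female C57BL/6N mice, 3 for each of 4 diets, was hybridised to 12 one-colour arrays after 6 months on the diet. The control diet (Ctrl) was a normal formula diet with corn starch and sucrose as its carbohydrate, and the RS diet was the same with resveratrol added. In the DJ diet, rice of the variety Dongjin stood in place of the starch and sucrose, and in the DJ526 diet a Dongjin rice that carries a resveratrol synthesis gene and makes resveratrol in its grain. All 4 groups shared strain, sex, supplier and housing, and no altered allele is named for any mouse. Mice were caged in groups, cages were assigned to diets, and the labels do not say which mice shared a cage, so that cage and diet cannot be told apart. A sample table among the study's supplements assigns the RS and DJ arrays the other way round from the labels. Each value given for RS or DJ follows the labels, and would belong to the other diet if that table were right.

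MHC class II molecules carry peptides from engulfed material to the cell surface, where helper T cells read them. They are made by B cells, dendritic cells and macrophages rather than by hepatocytes. Class II genes share short promoter elements, the X and Y boxes, which are bound by the RFX and NF-Y complexes and activated through the coactivator CIITA. In the liver, lymphocytes lie in the sinusoids and portal tracts among far more numerous hepatocytes, so their transcripts make up a small share of whole-tissue RNA. In such bulk samples, fewer cells of a type and less RNA per cell cannot be told apart.

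The promoters of class II genes are shown first because these genes are known to share promoter elements. Whether these elements bear on the values below was not tested. Windows of 300 bases, from 250 before to 50 after the transcription start, were available for 4 of the 9 genes (RefSeq, GRCm38.p6). Those of H2-Aa (minus strand, chr17:34287774-34288073) and H2-Eb1 (plus strand, chr17:34305617-34305916) are printed 5′ to 3′ on the strand of the gene, with the Y box CTGATTGG and the X box core TAGCAAC in capitals.
H2-Aa: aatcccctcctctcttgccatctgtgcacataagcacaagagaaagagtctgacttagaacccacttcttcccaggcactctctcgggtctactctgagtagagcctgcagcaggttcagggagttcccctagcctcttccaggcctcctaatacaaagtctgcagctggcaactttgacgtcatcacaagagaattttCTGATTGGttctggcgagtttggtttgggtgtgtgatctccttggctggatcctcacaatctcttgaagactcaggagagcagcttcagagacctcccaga
H2-Eb1: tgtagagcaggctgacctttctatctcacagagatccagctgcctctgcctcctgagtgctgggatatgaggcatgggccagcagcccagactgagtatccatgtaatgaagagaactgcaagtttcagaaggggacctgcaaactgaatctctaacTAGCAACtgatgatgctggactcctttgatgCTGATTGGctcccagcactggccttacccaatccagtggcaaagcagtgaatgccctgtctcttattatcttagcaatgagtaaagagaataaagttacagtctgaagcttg
The Y box began 51 bases before the start of H2-Aa and 62 before that of H2-Eb1. On either strand, CTGATTGG was present in 4.10% of all 32851 promoter windows of this length and TAGCAAC in 3.66%. Of the other class II genes with a window, H2-Oa and H2-Eb2 also held CTGATTGG, beginning 46 and 103 bases before the start. Stretches of 58 bases around it, H2-Oa from chr17:34092293-34092350 and H2-Eb2 from chr17:34325532-34325589, both on the plus strand, are given for comparison with the members above.
H2-Oa: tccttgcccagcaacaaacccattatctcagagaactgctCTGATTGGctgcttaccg
H2-Eb2: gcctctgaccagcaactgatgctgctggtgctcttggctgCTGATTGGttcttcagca
TAGCAAC was also held by the windows of H2-Ob and H2-Eb2, beginning 89 and 11 bases before the start, for H2-Eb2 outside the stretch given. The windows of Cd3e and Cd8a held neither CTGATTGG nor TAGCAAC. Only exact matches are in capitals, so a lack of capitals does not show that a window lacks an X or Y box. A match to these letters is a description of the sequence and not a measured binding site.

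Values are log2 of the processed signal after scaling each array to its own 75th percentile, so that 0 is the brightness of that percentile and a step of 1 is a 2-fold difference. A value can be compared between mice for 1 probe, but not between probes. The percentile itself was 953 to 1167 intensity units over the 12 arrays, and 73.0% to 80.8% of spots were well above background. Of the 11 probes, 9 were well above background on all 12 arrays, and both Cd8a probes on 11. Defining hepatocyte transcripts such as Alb and Ttr were bright on every array, and the mean level of the 10 hepatocyte genes stayed within 0.13 of its overall mean in every mouse. The arrays lay on 3 slides. Slide 1 held the 3 Ctrl mice and DJ mouse 1, slide 2 held DJ mice 2 and 3 with RS mice 1 and 2, and slide 3 held RS mouse 3 with the 3 DJ526 mice.

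None of the 9 genes differed between diets beyond the spread between mice. In every comparison the values of mice on one diet overlapped those on the other for all 11 probes, while the values of single mice within a diet were up to 3.76 log2 units apart (Ms4a1 on the DJ diet). The mouse numbered 1 on the RS, DJ and DJ526 diets had the highest class II and B cell values of the series.

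Cd74 encodes the invariant chain, which fills the groove of new class II molecules and guides them to the endosome. Its value was 2.97, 2.38 and 2.84 in Ctrl mice 1 to 3, 3.91, 3.18 and 2.33 in the RS mice, 3.99, 2.74 and 3.03 in the DJ mice, and 3.75, 3.10 and 2.74 in the DJ526 mice. The 3 highest mice were 1 from each diet other than Ctrl, the lowest value was that of RS mouse 3, and the 4 groups overlapped. The group means were 2.73 ± 0.31 (Ctrl), 3.14 ± 0.79 (RS), 3.25 ± 0.66 (DJ) and 3.20 ± 0.51 (DJ526; SD, n = 3). Cd74 thus differed from its Ctrl level by 0.41, 0.52 and 0.47 for RS, DJ and DJ526 in turn, each with a standard error of 0.42 (limma adjusted p = 0.97, 1.00 and 0.71). Without mouse 1 of the diet compared, which was the highest there, these became 0.02, 0.15 and 0.19.

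H2-Aa and H2-Ab1 encode the alpha and beta chains of the class II molecule I-A, and H2-Eb1 encodes the beta chain of I-E. H2-Aa was at 0.08, -0.78 and -0.34 in the Ctrl mice, 1.03, 0.19 and -0.73 in the RS mice, 0.92, -0.29 and 0.11 in the DJ mice, and 0.70, -0.03 and -0.49 in DJ526. H2-Ab1, by its brighter probe, was at 3.88, 3.28 and 3.55 in the Ctrl mice, 4.90, 4.33 and 3.39 in the RS mice, 4.90, 3.67 and 4.19 in the DJ mice, and 4.80, 4.01 and 3.71 in DJ526. H2-Eb1 was at 3.58, 2.93 and 3.27 in the Ctrl mice, 4.61, 3.95 and 3.06 in the RS mice, 4.63, 3.32 and 3.19 in the DJ mice, and 4.58, 3.78 and 3.27 in DJ526. All 3 genes repeated the pattern of Cd74, with mouse 1 the highest on each diet and with Ctrl mouse 2 and RS mouse 3 the lowest of the 12. The differences from Ctrl were 0.51, 0.59 and 0.40 for H2-Aa in RS, DJ and DJ526, with a standard error of 0.46. They were 0.63, 0.68 and 0.60 for H2-Ab1 (standard error 0.41) and 0.62, 0.45 and 0.62 for H2-Eb1 (standard error 0.47). The lowest limma adjusted p among these class II differences from Ctrl was 0.62, for H2-Ab1 in DJ526. The other H2-Ab1 probe gave 0.43, 0.57 and 0.38 for the same differences, and the order of the mice within each diet had mouse 1 highest there too.

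Cd79b encodes a signalling chain of the B cell receptor complex, and Ms4a1 encodes CD20, a membrane protein of mature B cells. These genes covered the widest ranges of the 9. Ms4a1 was at -2.83, -3.94 and -2.46 in the Ctrl mice, -0.72, -1.71 and -2.76 in the RS mice, 0.75, -3.01 and -2.24 in the DJ mice, and 0.24, -1.33 and -2.66 in DJ526. From Ctrl mouse 2 to DJ mouse 1 this was a 25.8-fold range of signal, and DJ mouse 1 stood more than 2 log2 units above either other DJ mouse. Cd79b was at -1.10, -1.87 and -0.30 in the Ctrl mice, 0.49, -0.17 and -1.20 in the RS mice, 1.74, -1.45 and -0.59 in the DJ mice, and 1.68, 0.15 and -0.75 in DJ526, a 12.2-fold range. The groups overlapped for both genes. Ms4a1 differed from Ctrl by 1.35, 1.58 and 1.83 for RS, DJ and DJ526 (standard error 0.97, limma adjusted p = 0.94, 0.99 and 0.53), and the 95% interval in DJ526 ran from -0.31 to 3.96. Cd79b differed by 0.80, 0.99 and 1.45 (standard error 0.82, limma adjusted p = 0.98, 1.00 and 0.55).

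Cd3e encodes a chain of the CD3 complex, the signalling part of the T cell receptor. It was at 1.02, 1.02 and 1.15 in the Ctrl mice, 1.01, 1.07 and 0.82 in the RS mice, 1.54, 1.14 and 0.92 in the DJ mice, and 1.16, 1.06 and 1.11 in DJ526. Apart from DJ mouse 1, which was also the highest mouse for Ms4a1, Cd79b and Cd74, all mice lay between 0.82 and 1.16. The differences from Ctrl were -0.09, 0.14 and 0.05 for RS, DJ and DJ526 (standard error 0.13, limma adjusted p = 1.00, 1.00 and 0.92), with 95% intervals from -0.39 to 0.20, from -0.16 to 0.43 and from -0.25 to 0.34. The probes of the partner chains Cd3d and Cd3g, chosen for mention after their values were seen, covered 5.62-fold and 4.71-fold ranges over the same mice, against 1.65-fold for Cd3e. Cd3d and Cd3g followed each other with r = 0.98, while Cd3e followed Cd3d with r = 0.67. The Cd3e probe therefore did not track the other chains of its own complex closely.

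Cd8a encodes the alpha chain of the CD8 coreceptor of cytotoxic T cells. Its signal was near the background. By the brighter of its 2 probes, values ran from -6.76 in Ctrl mouse 2, the array on which this probe was not well above background, to -4.62 in DJ526 mouse 1, and the groups overlapped. This probe differed from Ctrl by 0.56, 0.47 and 0.49 in RS, DJ and DJ526 (standard error 0.46). The other probe, for a different accession of the gene, gave 0.0014, 0.33 and -0.13, so that the probes disagreed in sign for DJ526. A local deviation was taken as the median over probes in the same part of the array and on the same side of the median brightness. For the dimmer Cd8a probe it ranged from -0.38 to 0.36 between arrays. For the brighter probe, at the place of 1 of its 10 spots, it ranged from -0.19 to 0.25. It stayed within 0.07 for the other members.

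Ccl5 encodes a chemokine made by T and NK cells that attracts further leukocytes. It was at 1.08, 0.22 and 1.47 in the Ctrl mice, 2.00, 1.33 and 0.61 in the RS mice, 2.26, 1.07 and 1.17 in the DJ mice, and 2.31, 1.12 and 0.55 in DJ526. The same 3 mice were highest as for Cd74, and Ctrl mouse 2 was lowest. The differences from Ctrl were 0.39, 0.58 and 0.41 in RS, DJ and DJ526, with a standard error of 0.51 (limma adjusted p = 1.00, 1.00 and 0.81).

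**Figure D1:**
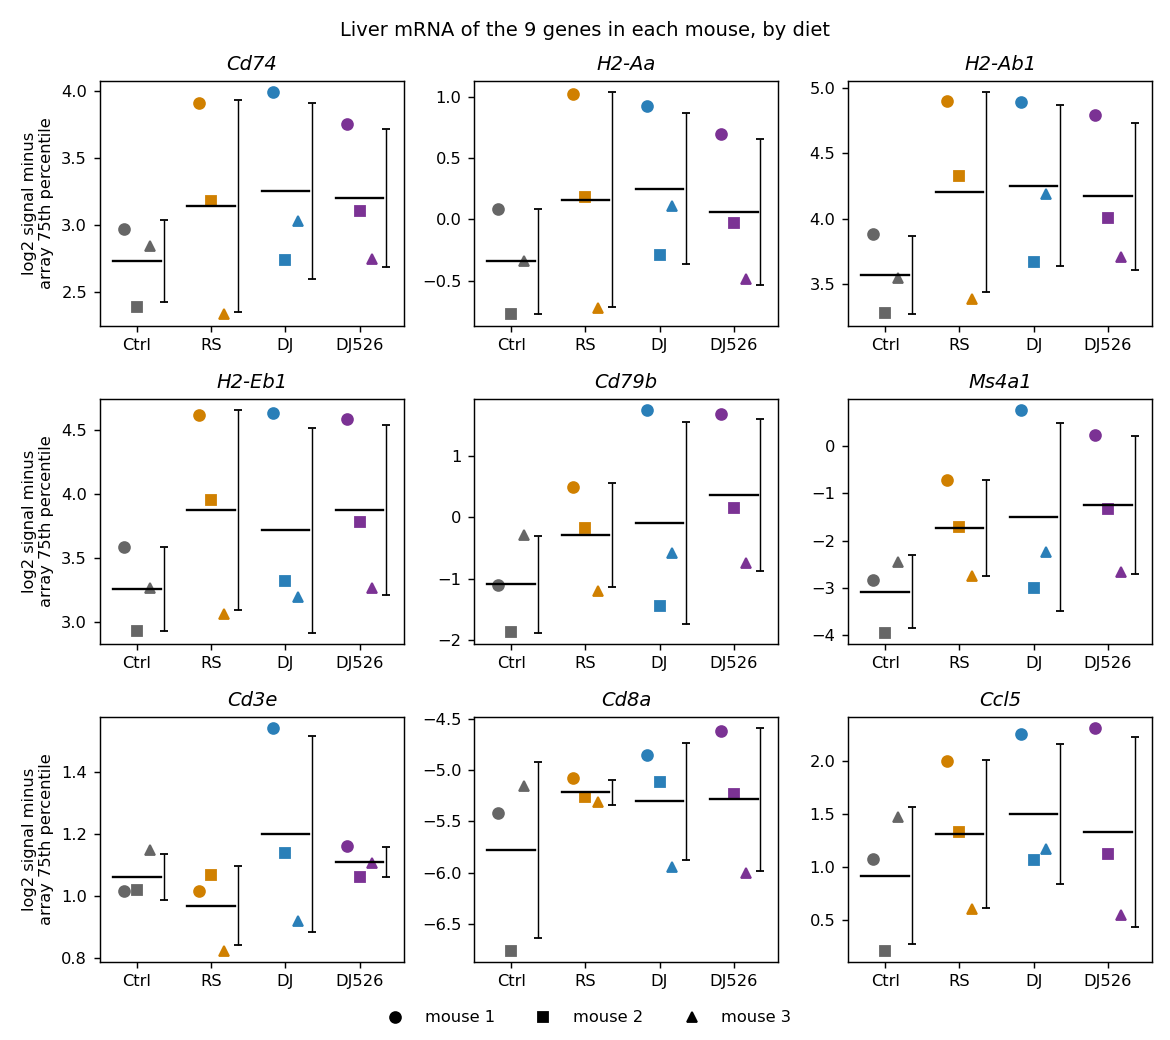
Value of each of the 9 genes in each mouse (vertical axes, log2 signal scaled to each array's 75th percentile, each panel on its own scale) by diet (horizontal axes). Circles, squares and triangles are mice 1, 2 and 3 of a diet, horizontal bars are group means and vertical bars are SD (n = 3). Circles are the highest point of every diet for the 4 class II genes, and no diet stands clear of another.

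The number of member probes called at an adjusted p under 0.05 was 0 of 11 in each of the 9 comparisons. The share of all 39429 probes called was 0% for RS against Ctrl, 0% for DJ against Ctrl and 0.00507% for DJ526 against Ctrl. It was 0.0101% for DJ526 against DJ, 0.00761% for DJ526 against RS and 0% for DJ against RS. It was 0% for the interaction, that is, the effect of resveratrol within the rice diets minus its effect within the starch and sucrose diets, 0% for rice against starch and sucrose, and 0.00507% for the F test over the 4 diets. With so few calls over the whole array, the count of 0 says little about these genes in particular. At an unadjusted p under 0.05, limma also gave 0 of 11 member probes in all 9 comparisons, where 6%, 5.22% and 10.8% of all probes passed in RS, DJ and DJ526 against Ctrl, 9.81% in DJ526 against DJ, 5.5% in DJ526 against RS, 3.52% in DJ against RS, 6.09% for the interaction, 4.57% for rice and 7.7% for the F test. Groups without overlap were found for 0 of 11 member probes in each pair of diets, against 10.2%, 9.36% and 20.6% of all probes for RS, DJ and DJ526 against Ctrl, 18.4% for DJ526 against DJ, 11.1% for DJ526 against RS and 6.34% for DJ against RS.

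The direction of the differences from Ctrl was nevertheless mostly the same. In RS, 8 of 9 genes had a higher mean than in Ctrl, with a median difference of 0.56 over the genes and 0.03 over all probes. In DJ and in DJ526 it was 9 of 9 genes, with medians of 0.58 and 0.49 over the genes and -0.02 and 0.02 over all probes. These 3 comparisons share the Ctrl mice, and the 9 genes share their mouse to mouse variation, so that the counts are not independent of each other. DJ526 against DJ gave 4 genes higher and 5 lower, with a median of -0.05 and single values from -0.19 for H2-Aa to 0.46 for Cd79b. The interaction was negative for 8 of 9 genes, with a median of -0.54 and values from -1.10 ± 1.37 (standard error) for Ms4a1 to 0.0019 ± 0.19 for Cd3e. Ctrl had the lowest of the 4 group means for 8 genes and RS for Cd3e, and no neighbours in the order of means differed beyond their spread.

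**Figure D2:**
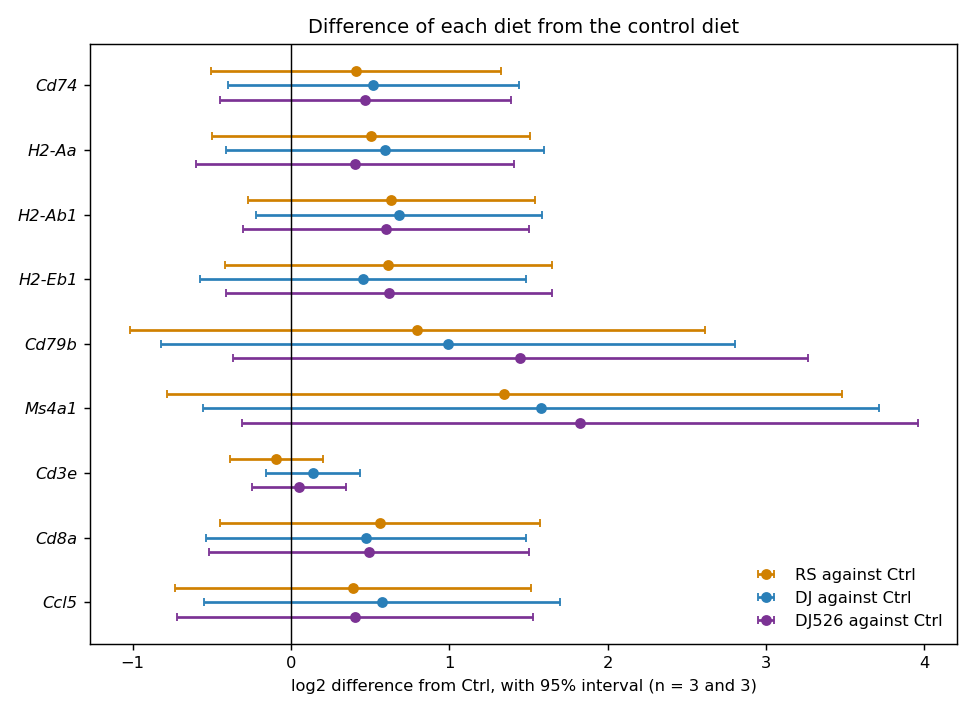
Difference of RS, DJ and DJ526 from Ctrl for each gene (horizontal axis, log2 units; points are limma estimates and bars 95% intervals, 3 mice against 3). Every interval crosses 0, the widest are those of Ms4a1 and Cd79b, and the narrowest are those of Cd3e.

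Slide changed the size of the differences from Ctrl. Slide 1, which held all Ctrl mice, also held only DJ mouse 1, so that with slide as a block the DJ difference from Ctrl is that mouse against the 3 Ctrl mice, and RS and DJ526 are set against Ctrl through it. Slide 3 held only RS mouse 3 beside the DJ526 mice, so every DJ526 difference under the block also passes through that array. RS mouse 3 was among the lowest mice for class II. With the block, the differences of Ms4a1 were 5.24, 3.83 and 6.74 for RS, DJ and DJ526, and those of Cd74 1.92, 1.26 and 2.79. The median over the 9 genes was 1.96, 1.33 and 2.79, and 9 of 9 genes were higher in each. No member probe was called (lowest limma adjusted p = 0.20), where the block called 0.00254%, 0.0203% and 0% of all probes. An unadjusted p under 0.05 was reached by 8, 8 and 9 of the 11 member probes, against 10.2%, 9.78% and 11.7% of all probes. For DJ526 against DJ, 7 of 11 reached it against 7.49% of all probes, the median was 1.48, and all 9 genes were higher in DJ526. Under the block, DJ526 against DJ is the difference of DJ526 from RS mouse 3 within slide 3, added to that of RS from DJ within slide 2. Without the block its median was -0.05, with 4 genes higher and 5 lower. Within slide 1, DJ mouse 1 lay above the mean of the Ctrl mice for 11 of 11 probes, by 0.48 to 3.83. Within slide 2, the mean of the RS mice was above that of the DJ mice for 11 of 11, by 0.013 to 1.41, and within slide 3, the mean of the DJ526 mice was above RS mouse 3 for 11 of 11, by 0.023 to 1.55. Single mice overlapped even there, as DJ mouse 2 was above both RS mice for Cd3e and DJ526 mouse 3 was below RS mouse 3 for Ccl5. The differences from Ctrl were also read without mouse 1 of the diet compared, picked after its values were seen. This mouse was the highest of its diet for most member probes, so that a smaller difference was built in. Without RS mouse 1, the median RS difference over the 9 genes was 0.25 in place of 0.56, without DJ mouse 1 that of DJ was 0.20 in place of 0.58, and without DJ526 mouse 1 that of DJ526 was 0.19 in place of 0.49. In size, 7, 9 and 9 of the 9 genes fell by more than 1.5 times, and 8, 7 and 8 were still higher than in Ctrl. With any 1 mouse left out, the lowest Cd8a difference in RS came without Ctrl mouse 2, at 0.07 in place of 0.56. Without the mouse numbered 1 of all 4 diets, chosen for this after its values were seen, the median differences from Ctrl were 0.40, 0.27 and 0.34 for RS, DJ and DJ526, and 8 of 9 genes were higher in each.

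**Figure D3:**
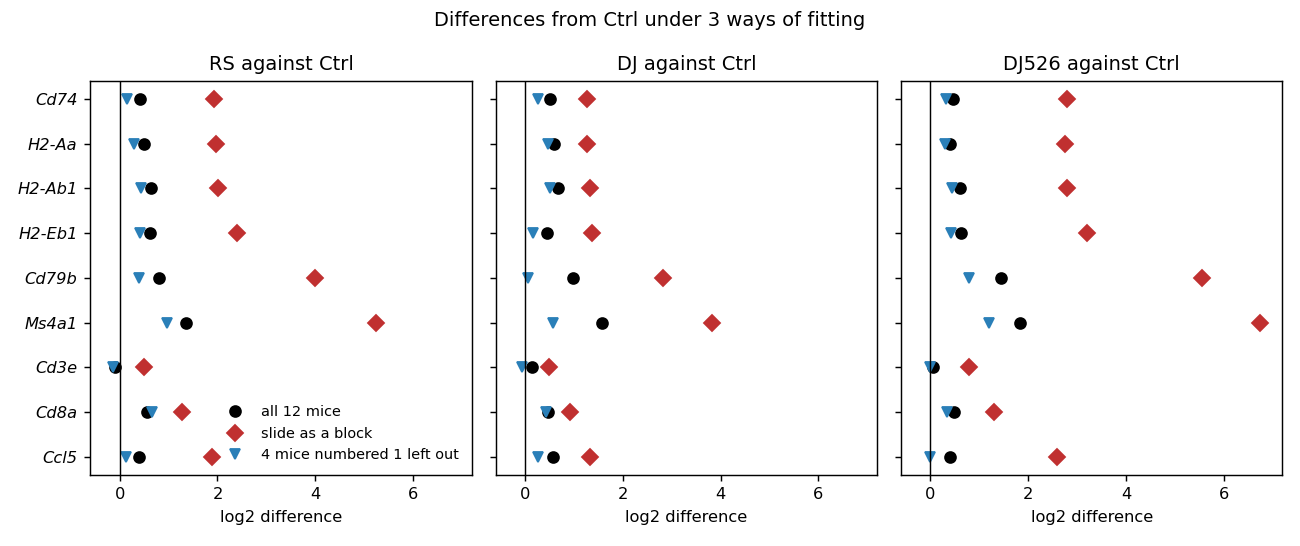
Difference from Ctrl of each gene (horizontal axes, log2 units) in RS, DJ and DJ526. Black circles use all 12 mice, red diamonds add slide as a block, and blue triangles leave out the mouse numbered 1 of each diet. The diamonds lie farthest to the right for all 9 genes in every panel, up to 6.74 for Ms4a1, and the triangles lie nearer 0 than the circles for most genes.

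Most of the variation lay between mice of the same diet. The share of the spread that lay between diets was 11.2% for Ccl5 to 28.0% for Ms4a1 among the members, and its median over all probes was 27.0%. The pooled SD within a diet was 0.59 for Cd74, 0.65 for H2-Aa, 0.58 for the brighter H2-Ab1 probe, 0.67 for H2-Eb1, 0.73 for Ccl5, 1.18 for Cd79b and 1.39 for Ms4a1. These were larger than the SD of 98.2%, 98.2%, 97.6%, 98.5%, 98.8%, 99.6% and 99.6% of probes of like brightness. Cd3e, with an SD of 0.18, exceeded 66.3% of such probes. Mouse 1 was the highest of its diet in all 4 groups for the 5 class II probes, which held for 1.43% of all probes. For Cd79b, Ms4a1, Ccl5 and both Cd8a probes it was so in 3 groups, and for Cd3e in 2. RS mouse 1, DJ mouse 1 and DJ526 mouse 1 were the 3 highest of all 12 mice for 9 of the 11 member probes, and for 1.9% of all probes, a pattern named after it was seen and so given with no test. These 3 arrays lay on 3 different slides.

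Over the 12 mice, the class II genes followed each other closely. Pearson's r was 0.94 to 0.98 for the 6 pairs of Cd74, H2-Aa, H2-Ab1 and H2-Eb1 (Spearman's rho 0.87 to 0.97), 0.95 to 0.99 when taken within diets, and 0.89 to 0.97 when the 2 mice farthest from the median were left out. Cd79b and Ms4a1 gave r = 0.98 and rho = 0.99. Across the roles, Cd74 gave r = 0.93 with Ms4a1 (rho = 0.91), 0.91 with Cd79b (rho = 0.93) and 0.93 with Ccl5 (rho = 0.87). Cd3e gave 0.41 to 0.63 with the other 8 genes, and 0.026 (Ms4a1) to 0.52 (Cd8a) when the 2 mice farthest from the median were left out. In these 36 correlations all genes of a mouse are read from the same array, so a change in one array would move all genes on it. The correlations are given as descriptions with no test. A slide held 4 arrays, too few for a correlation within it.

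**Figure D4:**
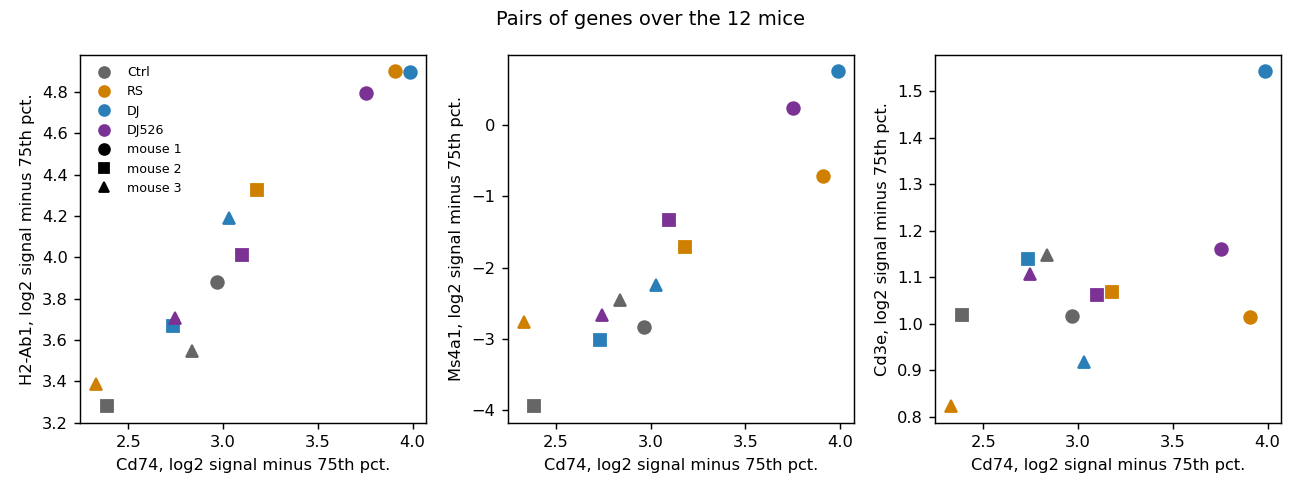
H2-Ab1, Ms4a1 and Cd3e (vertical axes) against Cd74 (horizontal axes) in the 12 mice, all in log2 signal scaled to each array's 75th percentile. Colours are diets and symbols mouse numbers. H2-Ab1 and Ms4a1 rise with Cd74 (r = 0.98 and 0.93), with the circles of RS, DJ and DJ526 at the upper end, whereas Cd3e is spread around 1 apart from DJ mouse 1 (r = 0.59).

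The rest of the class II pathway was read from a list of 14 further genes with a probe. For this and the following lists, levels, medians of r and counts of r are over the genes well above background on all 12 arrays, and the genes named are those of them with the widest range of group means unless stated otherwise. None passed the test in either direction in any comparison, and 0 of 14 had an unadjusted p under 0.05 in RS, DJ or DJ526 against Ctrl. H2-Oa and H2-Ob encode the chains of DO, which restrains peptide loading and is made mostly in B cells. H2-Oa was at -3.21, -3.88 and -2.95 in Ctrl, -1.82, -2.68 and -3.54 in the RS mice, -0.75, -3.70 and -2.91 in the DJ mice, and -1.01, -2.45 and -3.57 in DJ526. It gave r = 0.93 with the mean of the class II members, and H2-Ob gave 0.87, with the same 3 mice highest. H2-Eb2, a further beta chain gene, gave 0.43, which was also the median of the 13 genes well above background, of which 4 gave r above 0.7. These were H2-Oa and H2-Ob with H2-DMb1 (0.98) and H2-DMa (0.92), and the lowest was Rfx5 (-0.44). H2-DMb1, H2-DMa and Rfx5 were named after their values were seen. Ciita, the coactivator of class II genes, gave 0.45, and ranged from -4.12 in DJ mouse 3 to -2.66 in DJ mouse 1. Ctrl mouse 1 and RS mouse 3, which were not high in class II, were both at -2.67. The class I pathway, which serves all nucleated cells, was flat beside this, with levels from -0.18 to 0.21 for the mean of its 19 genes over the mice and H2-Q4, Psmb9 and Calr giving r of -0.20, 0.31 and -0.08 with class II. The median r over the 19 was 0.35, and 2 were above 0.7, H2-M3 (0.85) and Psmb10 (0.73), named after their values were seen. None of the 19 passed the test.

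Most B cell and T cell markers followed the class II members from mouse to mouse, with a median r of 0.83 for each list. Plasma cell markers followed in part, with a median of 0.64. The mean level of 12 of the 14 B cell genes relative to the mean of all mice was 0.60 in RS mouse 1, 1.45 in DJ mouse 1 and 1.29 in DJ526 mouse 1, and between -0.83 and 0.18 in the other 9 mice. Pou2af1, a coactivator of B cells, was at 0.69 in DJ mouse 1 and -3.60 in DJ mouse 2, and Fcmr, the receptor for IgM, at 0.39 and -2.66. Vpreb3, also on the B cell list, did not follow and was lowest in DJ mice 2 and 3, at -2.83 and -2.38. Cd22, named after its values were seen, gave r of 0.03 with class II and was highest in RS mouse 3. Of the 12 genes, 8 gave r above 0.7 with class II. The plasma cell list, at 6 of 7 genes, reached 1.00 in DJ mouse 1. Within it the joining chain gene Jchain ran from -0.31 in Ctrl mouse 1 to 4.04 in DJ mouse 1, and Mzb1, a chaperone of antibody secreting cells, from -3.49 to 0.78 in the same mice. Jchain, Mzb1 and Derl3 gave r of 0.68, 0.84 and 0.60 with class II, while Sdc1 and Xbp1, named after their values were seen, gave -0.50 and -0.07. The T cell list, at 16 of 18 genes, was at 0.33, 0.89 and 0.74 in the same 3 mice and between -0.71 and 0.14 in the others, and 13 of its genes gave r above 0.7 with class II. Cd2 and Cd5, surface proteins of T cells, gave 0.93 and 0.88, and Cd27 0.34. The T cell genes Cd4, Zap70 and Cd247, named after their values were seen, gave r of -0.01, -0.42 and 0.08. Of these, Cd247 was well above background on only 11 arrays and is not among the 16.

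No gene of these lymphocyte lists passed the test in any comparison. The median difference from Ctrl over the B cell genes was 0.44, 0.65 and 0.92 for RS, DJ and DJ526, over the plasma cell genes 0.16, 0.58 and 0.26, and over the T cell genes 0.40, 0.40 and 0.56, beside medians over all probes within 0.033 of 0. At an unadjusted p under 0.05, 2 of 14 B cell genes and 2 of 18 T cell genes differed between DJ526 and Ctrl, where 10.8% of all probes did. The summed signal of the B cell list, in multiples of the 75th percentile, ran from 2.76 to 4.32 (Ctrl), 3.57 to 5.41 (RS), 2.53 to 9.06 (DJ) and 2.63 to 8.33 (DJ526), and that of the T cell list from 29.6 to 44.6, 37.9 to 52.1, 46.0 to 52.4 and 42.4 to 48.6. Cd4 and Zap70, which did not follow class II, made up 83.9% to 95.5% of the T cell sum. Without them it ran from 1.93 to 3.15, 2.46 to 4.43, 2.35 to 7.41 and 2.36 to 6.20, and DJ no longer stood clear of Ctrl. The part of cell numbers in the values of the members was not tested.

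Lists for neighbouring functions held genes that followed class II and genes that did not. Of the dendritic cell genes, Flt3, a growth factor receptor of these cells, gave r = 0.93 with class II, Itgax 0.69 and Batf3 0.36, and the median over 10 of the 12 was 0.73. In the NK and cytotoxic list of 15, the transcription factors Eomes and Tbx21 gave 0.79 and 0.83 and the granzyme gene Gzmk -0.17, with a median of 0.38 over 13 genes. Ccl19, which draws T cells and dendritic cells into lymphoid tissue, gave 0.89 and was at 0.67 in DJ mouse 1 against -1.62 in DJ mouse 2. Cxcl9 gave 0.72 and Cxcl13 0.25, and the receptor and chemokine list had a median of 0.68 over 13 of its 15 genes. Ccr1 and Ccl22 of this list were not well above background on any array. The interferon gamma gene Ifng gave 0.79 and 2 of its targets, Gbp3 and Tgtp1, 0.35 and 0.19, with a median of 0.54 over the 16 genes of that list. Of the pan-leukocyte genes, Coro1a and Cd52 gave 0.91 and 0.93, Cd53 0.50, and the list of 12 had a median of 0.67. No gene of these lists passed the test.

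**Figure D5:**
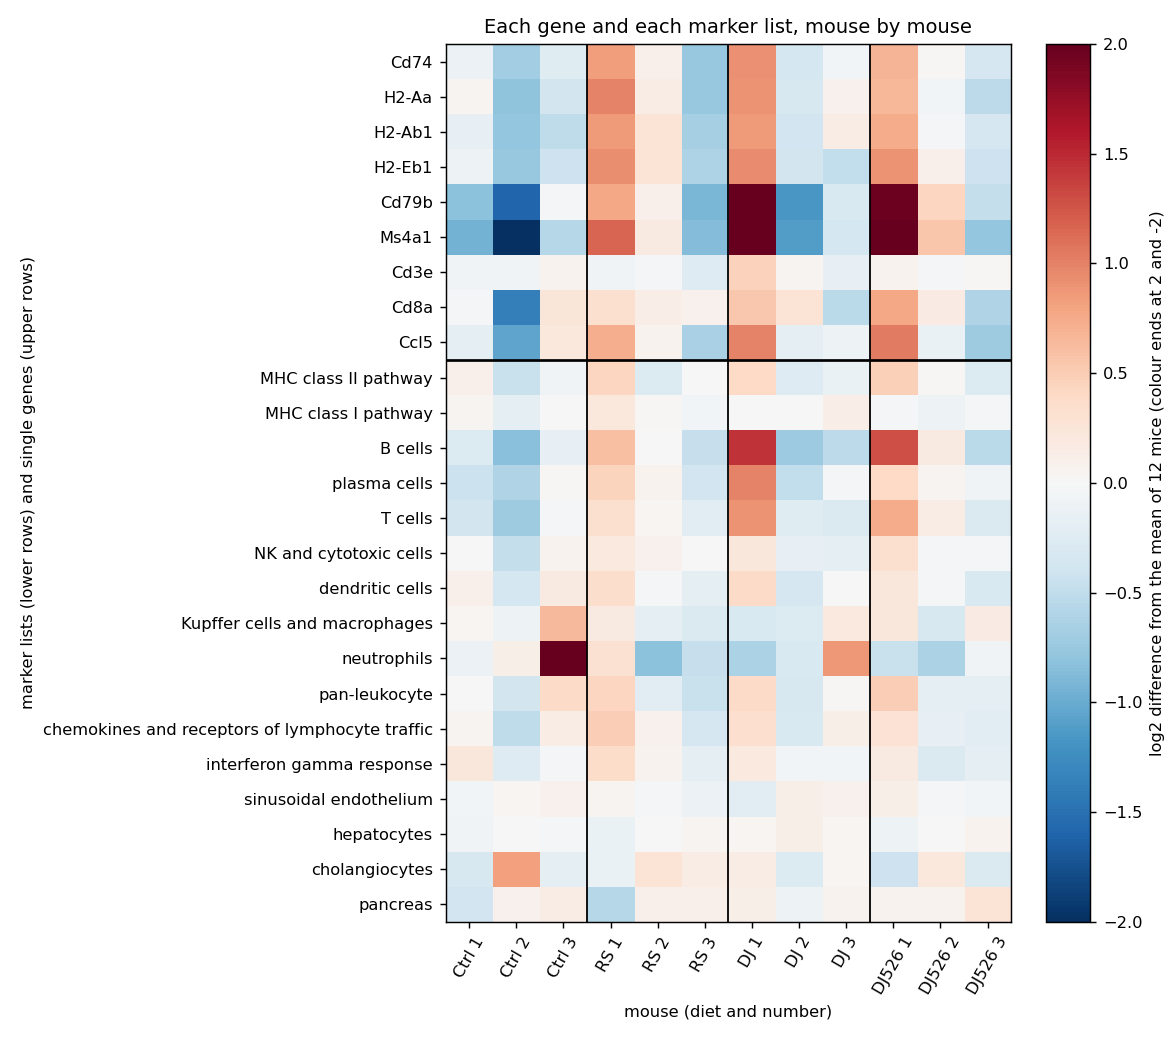
Each member gene (upper rows) and the mean level of each marker list (lower rows) in each mouse (columns, grouped by diet), as log2 difference from the mean of the 12 mice. Red is higher and blue lower, and the colour ends at 2 and -2. RS 1, DJ 1 and DJ526 1 are red for the class II and B cell genes and for the B cell and T cell lists, Ctrl 2 is blue for them, and the hepatocyte row is nearly white in all mice.

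Among all 20074 named probes compared that were neither members nor on a list, the 5 genes most like the mean of the class II members over the 12 mice were Lsp1 (r = 0.97), Lxn (0.96), Sema4d (0.96), Nfkbie (0.96) and Cst7 (0.95). For the mean of the lymphocyte members they were Il21r (0.99), Fcrla (0.99), Sh2d1a (0.98), Traf3ip3 (0.98) and Gpr132 (0.98). The members entered this mean centred but not scaled. The B cell genes Ms4a1 and Cd79b, with ranges of 4.69 and 3.61, therefore weighed more in it than Cd3e, with 0.72. Their ranges over the mice were 0.78 log2 units for Lxn to 3.35 for Il21r, and none of the 10 passed the test between any diets (lowest limma adjusted p = 0.59). These genes were selected for their likeness, so their r is a description.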

How the data were processed

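Liver RNA of 12 mice was measured on Agilent one-colour arrays. For each array the authors deposited spot intensity on a linear scale from Feature Extraction 11.5.1.1 (per the file headers), background-subtracted, and a table of normalized intensity, the same signal times 1 factor per array, used as an alternative. The authors deposited no log2 values. Here the mean processed signal of a probe without flagged spots was put on the log2 scale after division by that array's 75th percentile. limma 3.58.1 (R 4.3.3; lmFit and eBayes with a variance trend) was fitted to all 39429 probes and 12 arrays with 1 mean per diet, with Benjamini-Hochberg adjustment over the whole array and a threshold of 0.05. It was tested on simulated data. Other steps used Python 3.11.15, numpy 2.4.6, scipy 1.17.1, pandas 2.3.3 and matplotlib 3.10.9.

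Probes were named by RefSeq accession (27508 probes; 11921 stayed unnamed), and the brightest probe stood for a gene. Named were every member, up to 3 called genes of each of 16 companion lists or otherwise the 3 with the widest range of group means among those well above background on all 12 arrays, Ciita, and the 5 genes most like each mean. H2-Ea had no named probe. Members and lists were chosen with earlier results of these data known. Each array is 1 mouse. Precision is limited by 3 per diet, where an exact test of 3 against 3 cannot go below 0.10. A supplementary sample table lists the arrays of RS and DJ the other way round; the labels were followed. Alternatives were other background corrections, scalings, filters, blocks, position on the array, the methods' t-test and Z ratio, and each mouse left out; leaving out the 4 mice numbered 1 was chosen after seeing the data.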

Additional observations from a re-analysis of the deposited data

How the results depend on the processing

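Under every alternative run, 0 of 11 member probes were called. The methods' t-test, the Z ratio and the fit of only the groups compared were run on the 6 pairs of diets, and the others, each mouse left out included, on all 9 comparisons. Of 1072 recomputed differences of single genes, 1012 kept their direction, 60 reversed and 0 passed the threshold; 36 of the reversals were in DJ526 against DJ, where the main values are near 0. The cause was not tested. Deviations of same-numbered mice from their group means correlated with r of -0.27 to 0.26 (median -0.02, 4 of 18 pairs over 0.1). For mice of different number, r was -0.34 to 0.35 (median 0.02, 13 of 36 pairs over 0.1). Taken over the array, these r cannot tell whether same-numbered mice share something in the 9 genes. With the mouse number as a replicate block, the count stayed at 0 called, and 2, 4 and 4 of 11 probes had an unadjusted p under 0.05 in RS, DJ and DJ526 against Ctrl, with a lowest limma adjusted p of 0.78, 0.88 and 0.41. Of all 39429 probes, 2369, 2104 and 4120 had an unadjusted p under 0.05 in the same fits. Mouse 1 was the highest of its diet for most member probes. The block takes out such a difference between numbers, so a smaller remaining spread for these probes was built in.

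With slide as a block, DJ526 against DJ turned to 1.53 for Cd74, 1.48 for H2-Aa, 1.47 for H2-Ab1, 0.30 for Cd3e and 1.26 for Ccl5, Cd3e in RS to 0.50, and the Cd3e interaction to -0.20. The only link of the DJ526 arrays to the other diets in that fit is RS mouse 3. Normexp turned H2-Eb1 (-0.088), Cd3e (0.016) and Cd8a (-0.096) in DJ526 against DJ, Cd3e in RS (0.049) and its interaction (-0.033). Array median scaling turned Cd3e in DJ526 against Ctrl (-0.019), its interaction (-0.010) and Cd8a in DJ526 against DJ (-0.064). In the same comparison Cd8a turned under quantile normalization (-0.15), with position on the array (-0.16) and as the mean of its probes (-0.22), and Cd74 in the deposited table (0.011). Without the 4 mice numbered 1, DJ526 against DJ turned for Cd74 (0.039), Cd3e (0.056) and Cd8a (-0.088), Cd3e turned in DJ against Ctrl (-0.055), Ccl5 in DJ526 against Ctrl (-0.0046) and the Cd79b interaction (0.31).

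With 1 mouse left out at a time, DJ526 against DJ ran from -0.33 to 0.32 for Cd74, -0.51 to 0.15 for H2-Aa, -0.39 to 0.24 for H2-Ab1, -0.19 to 0.62 for H2-Eb1, -0.22 to 1.37 for Cd79b, -0.51 to 1.37 for Ms4a1, -0.23 to 0.081 for Cd3e, -0.31 to 0.38 for Cd8a and -0.66 to 0.22 for Ccl5. DJ against Ctrl ran from -0.0037 to 0.72 for H2-Eb1, -0.032 to 0.28 for Cd3e and -0.019 to 0.79 for Cd8a, and DJ526 against Ctrl from -0.082 to 0.79 for Ccl5. The interaction ran from -0.86 to 0.0056 for H2-Eb1, -1.01 to 0.58 for Cd79b, -1.85 to 0.027 for Ms4a1 and -0.14 to 0.17 for Cd3e. Without DJ mouse 1 alone, the DJ difference from Ctrl was 0.45 for Ms4a1 and 0.07 for Cd79b. Cd8a is limited by its signal near the background, and Ms4a1 and Cd79b by the widest standard errors of the 9 genes.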

Other observations

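Lists of other cell types did not follow the class II genes. Over the 12 mice, the median r with class II, over genes well above background on all arrays, was -0.0037 for the 12 Kupffer cell and macrophage genes, -0.17 for 6 of 9 neutrophil genes, -0.24 for the 8 sinusoidal endothelium genes, -0.08 for the 10 hepatocyte genes, -0.32 for the 6 cholangiocyte genes and -0.26 for 4 of 10 pancreas genes, and no gene of these lists was called in any comparison.

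Ctrl mouse 3 stood apart in myeloid genes, with a neutrophil level 2.19 above the mean of all mice and a Kupffer cell level 0.65 above it. The alarmin genes S100a8 and S100a9 were at 0.97 and 2.64 in this mouse and at most -0.06 and 1.53 in the others. Marco, a scavenger receptor of macrophages, was at 5.16 there and at 1.90 in DJ mouse 2, Cd5l was at 5.88 and Timd4 at 0.10. The granule gene Ltf was at -1.56 in Ctrl mouse 2 and -2.19 in Ctrl mouse 3, against -5.44 in Ctrl mouse 1.

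Ctrl mouse 2, which had the lowest B cell values, had the highest cholangiocyte level, 0.83 above the mean. The bile duct keratin Krt19 was at 0.52 in this mouse and between -2.79 and -1.89 in the others, and Krt7 was at -3.59. Spp1 was highest in RS mouse 2, at 0.45. Among the liver cell markers with the widest range of group means, the spread over mice was small for the endothelial genes Clec4g (0.76), Pecam1 (0.43) and Stab1 (0.54) and the hepatocyte genes Fgb (0.45), Apob (0.72) and Tat (1.29). Pancreas genes were low, with Try4 not well above background on any array. Cela1, Cela2a and Ctrb1 ranged over 1.84, 1.40 and 0.91 log2 units.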
